A study of Mus musculus with 8 samples.

Results

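The genes described here are 10 components of the Notch pathway, matched by gene name in the deposited tables: the ligands Dll1, Dll4, Jag1 and Jag2, the receptors Notch1 and Notch2, and the target genes Hes1, Hey1, Hey2 and Heyl. They are 10 of the 48440 genes in those tables, and all 10 had a mean of at least 10 normalized counts in both sexes and were tested. Polyadenylated RNA was measured by sequencing in mouse gonads at embryonic day 11.5, with 2 pairs of gonads pooled in each library and 2 libraries in each of 4 groups. The groups were XY Kdm6b-null, XY wild type, XX Kdm6b-null and XX wild type, where Kdm6b encodes an enzyme that removes repressive methyl groups from a histone. Which part of Kdm6b the null allele lacks, and the cross and strain behind it, are not stated in the labels. The labels name pre-Sertoli cells for XY and pre-granulosa cells for XX but the tissue is given as gonad and no sorting step is described. Markers of several cell types were present in every library, with the summed endothelial and the summed mesonephros and duct markers among them. The libraries are treated here as whole gonads.

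Notch receptors are activated by ligands on a neighbouring cell. Ligand binding exposes the receptor to cleavage, and the released intracellular part enters the nucleus, joins the DNA-binding protein RBPJ and switches on genes of the Hes and Hey families, which encode transcriptional repressors. In the embryo Dll4, Notch1, Hey1 and Hey2 are known for their part in endothelial cells, above all in arteries, and in the fetal gonad Notch signalling is known for keeping interstitial progenitor cells from becoming steroidogenic cells.

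Promoter sequences were matched for 7 of the 10 genes in RefSeq (build GRCm38.p6). None was matched for Hes1, Hey1 and Heyl, so Hey2 was the only target gene searched. The 250 bases upstream of the annotated start were searched on both strands for the RBPJ core TGGGAA and for the N-box CACNAG, a motif bound by HES proteins; the motifs do not overlap in the stretches shown. The RBPJ core was found in 1 of the 7 windows and in 21.6% of all 32851 promoter windows of that length. The N-box was found in 3 of the 7 and in 36.7% of all. The Notch1 window, which held an N-box, lies wholly inside the deposited gene. Its RefSeq start is 12841 bases from the start of that gene. The stretches are shown for Dll4, the ligand whose null and wild type libraries did not overlap in either sex, and for Hey2, the target with the highest log2 fold change in XX gonads. Each runs 5′ to 3′ along its gene's own strand up to the start of the deposited gene, at chr2:119325534-119325783 on the plus strand for Dll4 and chr10:30842802-30843033 on the minus strand for Hey2. Capitals mark the N-box in Dll4 and the RBPJ core, read on the opposite strand as its reverse complement, in Hey2:
Dll4: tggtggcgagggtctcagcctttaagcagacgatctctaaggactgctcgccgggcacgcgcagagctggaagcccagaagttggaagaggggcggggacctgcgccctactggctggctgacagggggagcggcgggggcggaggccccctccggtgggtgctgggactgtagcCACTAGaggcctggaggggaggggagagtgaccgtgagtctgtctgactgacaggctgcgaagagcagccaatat
Hey2: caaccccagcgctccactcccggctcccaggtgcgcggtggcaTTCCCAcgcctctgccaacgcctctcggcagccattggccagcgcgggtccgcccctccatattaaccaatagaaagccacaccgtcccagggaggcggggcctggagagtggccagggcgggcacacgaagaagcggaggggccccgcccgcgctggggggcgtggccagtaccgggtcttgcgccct
The Hey2 match lies 207 to 202 bases upstream of the RefSeq start and the Dll4 match 75 to 70 bases upstream. These letters are descriptions of the sequence and were not tested for binding.

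The libraries held 19107103 to 19828638 counts on genes, so that a value of 0 allows for up to 3 counts, or 2.91 to 3.09 after normalization. A normalized count is a read count divided by the size factor of its library, and the authors normalized the XX and XY libraries in separate tables. Levels in XY and XX gonads are therefore set side by side without a test. Kdm6b itself was below wild type in all 4 null libraries. It had 1238 and 1037 normalized counts in XY null gonads, against 3399 and 3181 in their wild type, and 1249 and 1125 in XX null gonads, against 2218 and 2796 in the XX wild type. Whether pools came from separate litters is not stated, so p-values measure only how much these pools vary. The XX wild type libraries stood furthest apart, with log2 values correlated at 0.965, where the other groups' pairs reached 0.9801 to 0.9851. By limma 0 of 16821 genes were called in XY (0.0%) and 0 of 17028 in XX (0.0%) at an adjusted p under 0.05, while 834 genes in XY (4.96%) and 2383 in XX (14.0%) had an unadjusted p under 0.05. The authors' deposited tables held 72 DESeq2 calls in XY (0.402% of genes) and 407 in XX (2.77%). Within a sex limma did not call Kdm6b either, at a log2 fold change of -1.54 (limma adjusted p = 0.12) in XY and -1.07 (limma adjusted p = 0.19) in XX. The deposited tables gave Kdm6b DESeq2 adjusted p values of 8.2e-25 in XY and 7.1e-07 in XX. With the main settings the limma test within a sex thus left even this change uncalled. With a term for the replicate number added, limma called Kdm6b in XY (adjusted p = 0.0031) but not in XX.

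Per kilobase of exon, Hes1, Notch2 and Jag1 were on average the most abundant of the 10 genes, and the ligands Jag2 and Dll1 the least. Hes1, the general repressor of the family, ranged from 261 to 395 normalized counts per kilobase over the 8 libraries. It exceeded Notch2, at 265 to 347 per kilobase, in 7 of 8 libraries, and Notch2 exceeded Jag1, at 242 to 365, in 6 of 8, so that the order of these neighbours was not the same in every library. Hey1 came next at 136 to 356 per kilobase and was below Jag1 and above Heyl in all 8 libraries. Heyl, which also occurs in smooth muscle cells of vessels, ranged from 60.8 to 157 per kilobase and Notch1 from 60.5 to 113. The length used joins all annotated exons of a gene, 14232 bases for Notch1. A gene with little used exons is understated on this scale, so the order of Heyl and Notch1 may depend on it. Dll4, at 47.0 to 91.6, and Hey2, at 51.1 to 97.0, exchanged places, each being the higher in 4 of 8 libraries. Jag2 (25.7 to 43.1 per kilobase) and Dll1 (24.8 to 46.8) did so too, and both were below Hey2 in all 8.

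**Figure D1:**
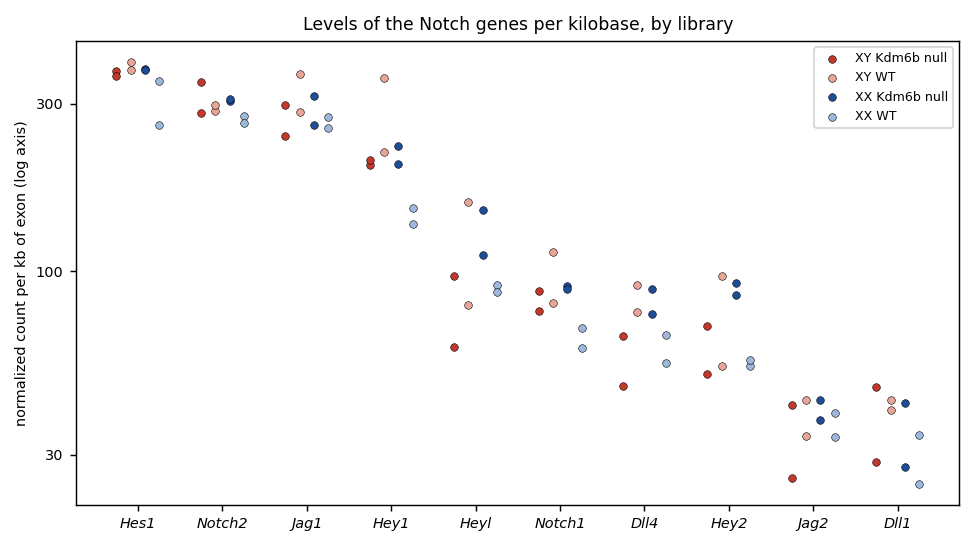
Normalized counts per kilobase of exon (log axis) of the 10 Notch genes in each of the 8 libraries, from the highest gene on the left to the lowest, with XY null, XY wild type, XX null and XX wild type side by side for each gene. Hes1, Notch2 and Jag1 lie between 242 and 395 per kilobase and Jag2 and Dll1 between 24.8 and 46.8.

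The comparison within each sex asks how the loss of Kdm6b affects the gonad as sex determination begins. Most of the Notch genes had log2 fold changes of opposite sign in the 2 sexes, none of them past the threshold. In XY null gonads 9 of the 10 had a negative log2 fold change, with a median of -0.24, where 50% of all genes tested were lower. In XX null gonads all 10 had a positive log2 fold change, with a median of 0.39, where 50.1% of all genes were higher. The 9 genes that were lower in XY were all higher in XX, and 21.9% of all genes had that pair of signs. None of the 10 passed an adjusted p under 0.05 by limma in either sex. In whole tissue, a smaller number of cells of a type and less RNA in each of them cannot be told apart.

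**Figure D2:**
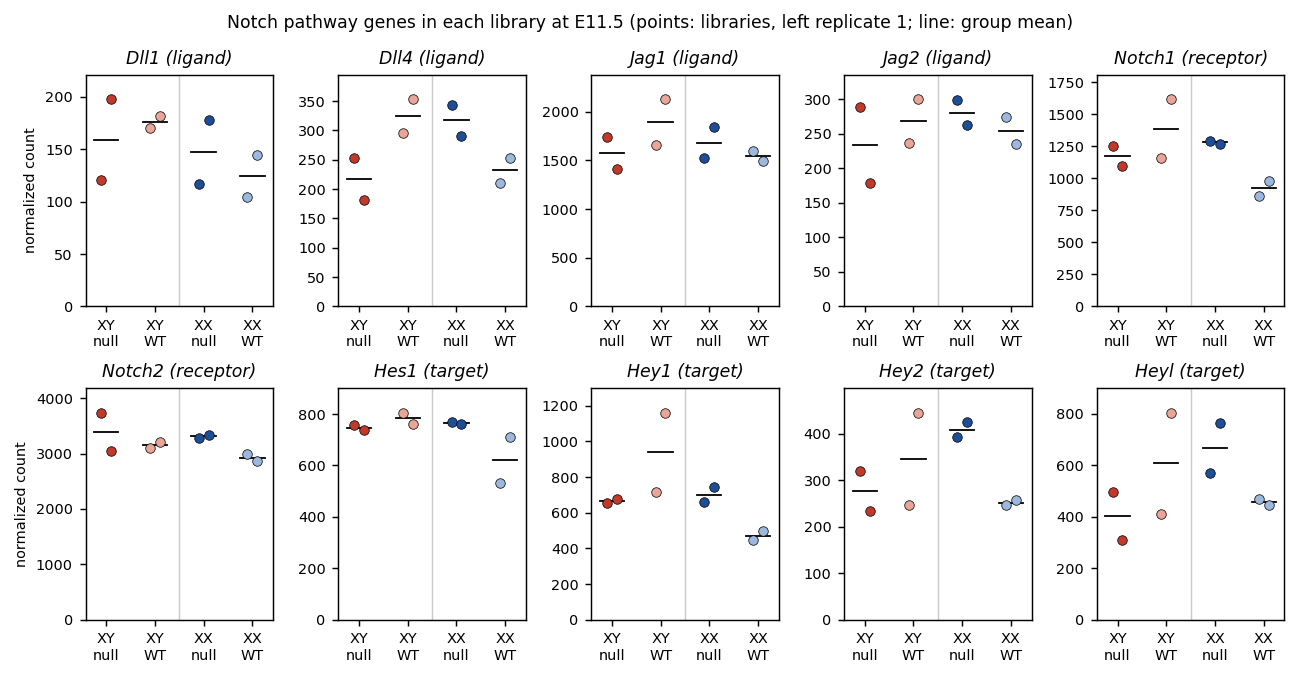
Normalized counts of each Notch gene (y axis, from 0) in the 2 libraries of XY null, XY wild type, XX null and XX wild type gonads, with points for libraries and lines for group means; XY and XX values come from tables normalized separately. For Dll4 and Hey1 both null libraries lie below both wild type libraries in XY and above them in XX.

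Among the ligands, Dll4 separated the groups in both sexes. Dll4, the ligand of sprouting and arterial endothelium, had 253 and 181 normalized counts in XY null gonads, against 296 and 353 in XY wild type. In XX it had 344 and 291 in null gonads, against 211 and 253 in wild type. The groups did not overlap in either sex, the null libraries being the lower in XY and the higher in XX. For Dll4 the log2 fold change was -0.59 (SE 0.20, limma adjusted p = 0.93) in XY gonads and 0.45 (SE 0.17, limma adjusted p = 0.34) in XX. An antisense gene, Gm14207, overlaps its exons and held at most 21.9 normalized counts in any library, and since no source states whether counting used strand the reads of the pair cannot be told apart.

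The other ligands differed less between genotypes, and in all 3 the groups overlapped in both sexes. Jag1, the main Jagged ligand of many embryonic tissues, had 1738 and 1412 normalized counts in XY null gonads, against 1658 and 2127 in wild type, and 1523 and 1839.7 in XX null gonads, against 1601 and 1497 in wild type. In XY its log2 fold change was -0.26 (SE 0.16), and in XX it was 0.11 (SE 0.12). Jag2, its paralogue, had 289.7 and 179 normalized counts in XY null gonads, against 236 and 300.1 in wild type, and 299 and 263 in XX null gonads, against 275 and 235 in wild type. Dll1, a Delta ligand used widely in progenitor cells, had 121 and 198 normalized counts in XY null gonads, against 170.2 and 181 in wild type. In XX it had 117 and 178 in null gonads, against 105 and 145 in wild type. The 95% limma intervals of these 3 ligands all held 0. That of Dll1 ran from -0.84 to 0.47 in XY and from -0.50 to 0.95 in XX, so in each sex it also held the log2 fold change of Dll4.

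The receptors differed from each other. Notch1, the receptor that endothelial cells share with many progenitors, had 1254 and 1098 normalized counts in XY null gonads, against 1155 and 1615 in XY wild type, and the groups overlapped. In XX it had 1291 and 1266 in null gonads, against 862 and 981 in wild type, without overlap. The log2 fold change was -0.22 (SE 0.17) in XY and 0.48 (SE 0.11, limma adjusted p = 0.26) in XX, where the authors' deposited table gave 0.47 with an adjusted p of 0.087. Notch2, the more abundant receptor per kilobase, had 3739.8 and 3046 normalized counts in XY null gonads, against 3093 and 3207 in wild type, and was the only one of the 10 with a positive log2 fold change in XY (0.10, SE 0.11). In XX gonads Notch2 had 3288 and 3332 in null, against 2986 and 2861 in wild type, so that the groups did not overlap while the log2 fold change was small (0.18, SE 0.09). Antisense transcripts overlapping Notch1 held at most 18.5 normalized counts in any library.

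All 4 target genes were higher in both XX null libraries than in either XX wild type library, an order that 27.0% of all genes showed. Hey2, which holds arterial identity in endothelium, had 393 and 425 normalized counts in XX null gonads, against 246 and 257 in wild type, the highest log2 fold change among the 10 genes (0.70, SE 0.13, limma adjusted p = 0.26). Hey1, its close paralogue, had 659.7 and 743 in XX null gonads, against 444 and 496 in wild type (log2 fold change 0.58, SE 0.12, limma adjusted p = 0.26). Heyl had 569 and 764 in XX null gonads, against 468 and 447 in wild type (0.53, SE 0.17), with more spread between the null libraries than Hey2. Hes1 had 767 and 763 in XX null gonads, against 532 and 709 in wild type (0.32, SE 0.16), and here the spread lay in the wild type. The authors' deposited table gave DESeq2 adjusted p values of 0.057 for Hey2, 0.077 for Hey1, 0.2 for Heyl and 0.61 for Hes1 in XX.

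In XY gonads the same 4 targets had negative log2 fold changes, with more spread between libraries. Hey1 had 655 and 679 normalized counts in XY null gonads, against 716 and 1161 in wild type (log2 fold change -0.45, SE 0.23), and the groups did not overlap. Hes1 had 757 and 736 in XY null gonads, against 805 and 762 in wild type (-0.07, SE 0.08), which did not overlap either, although the difference was slight. Hey2 had 319.9 and 235 in XY null gonads, against 247 and 446 in wild type, and Heyl had 497 and 311, against 411 and 805 in wild type. For both of these genes 1 null library lay above the lower wild type library, so the groups overlapped. In XY the log2 fold change was -0.28 (SE 0.31) for Hey2 and -0.55 (SE 0.37) for Heyl, and every XY limma adjusted p of the 10 genes was 0.93 or above.

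The XY values rested in part on a single wild type library. XY wild type replicate 2 was above replicate 1 for 9 of the 10 genes, with a median log2 difference of 0.35, where 50.2% of all genes were higher in replicate 2. Without that library the XY median was -0.07, with 7 of the 10 genes lower, and the log2 fold changes were 0.15 for Hey2, 0.02 for Notch1, -0.06 for Heyl and -0.10 for Hey1. Dll4 was at -0.46 without XY wild type replicate 2 and between -0.83 and -0.35 whichever XY library was left out. In the null group replicate 2 was the lower for 8 of the 10 genes. The median of the 10 genes relative to the wild type mean was -0.12 in XY null replicate 1 and -0.42 in replicate 2.

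The XX values were more even across libraries. The median relative to the wild type mean was 0.32 in XX null replicate 1 and 0.40 in replicate 2. The null and wild type libraries did not overlap for 7 of the 10 genes in XX, all with the null higher, where 27.0% of all genes showed that order. In XY both null libraries were below both wild type libraries for 3 of the 10 genes, where 16.3% of all genes were. With an unadjusted limma p under 0.05, 5 of the 10 were higher in XX (Notch1, Dll4, Hey1, Hey2 and Heyl), against 9.34% of all genes, and 1 of the 10, Dll4, was lower in XY, against 2.85% of all genes. Without XX wild type replicate 1 limma called Hey2 (log2 fold change 0.67, adjusted p = 0.046), in a fit that called 3.69% of all genes. Without XX wild type replicate 2 it called Hey2 (0.73, adjusted p = 0.014), Hey1 (0.65, adjusted p = 0.013), Notch1 (0.57, adjusted p = 0.0072) and Hes1 (0.52, adjusted p = 0.014), in a fit that called 20.9% of all genes. Hes1 was at 0.11 without XX wild type replicate 1 (limma adjusted p = 0.57), so its XX value rested on that library. In both of these fits the remaining wild type library was assumed to vary like the null libraries.

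**Figure D3:**
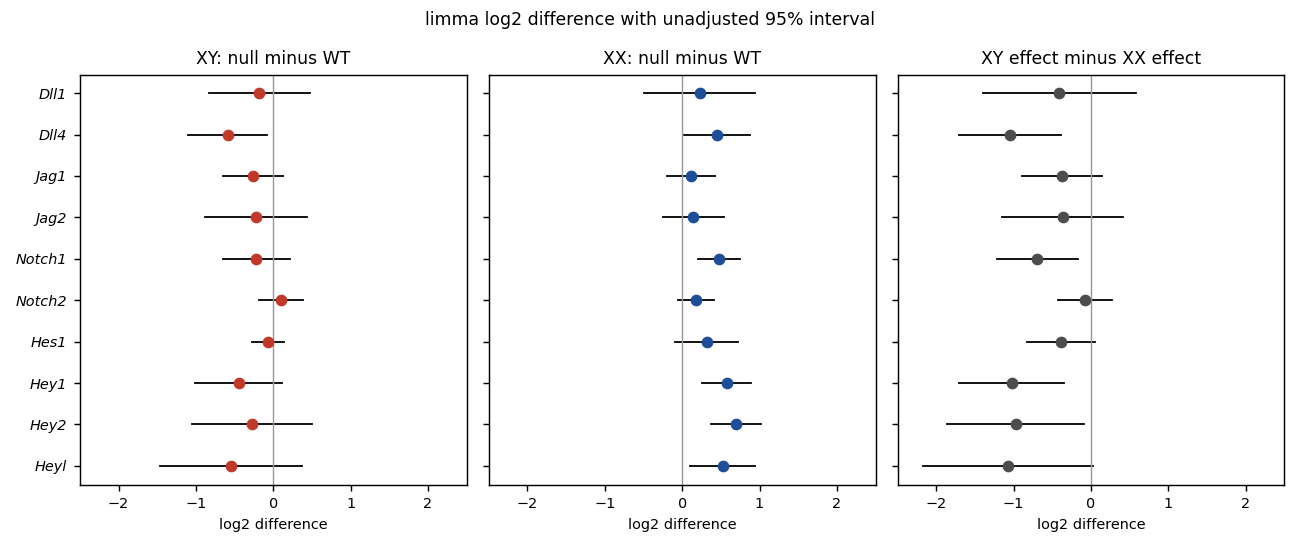
Points show the limma log2 difference of each Notch gene (x axis) between null and wild type in XY (left) and XX (middle) and between the XY effect and the XX effect (right), and bars the unadjusted 95% interval. In XX the intervals of Notch1, Dll4, Hey1, Hey2 and Heyl lie above 0, and in the right panel those of Notch1, Dll4, Hey1 and Hey2 lie below 0.

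The difference between the sexes was tested directly, as the XY effect minus the XX effect in a fit of all 8 libraries, where a scale factor between the tables cancels. All 10 genes had a negative difference, with a median of -0.55, where 52.0% of all genes were negative and their median was -0.02. The difference was -1.07 (SE 0.47) for Heyl, -1.05 (SE 0.28) for Dll4, -1.03 (SE 0.29) for Hey1, -0.97 (SE 0.38) for Hey2 and -0.69 (SE 0.22) for Notch1. For Notch2 it was -0.08 (SE 0.15), the value closest to 0. No gene passed, with limma adjusted p = 0.57 for Dll4, Hey1 and Notch1 and 0.59 for Hey2 and Heyl, and limma called 0 of 16943 genes (0.0%), of which 1425 (8.41%) had an unadjusted p under 0.05. An unadjusted p under 0.05 was reached by 4 of the 10 (Dll4, Hey1, Notch1 and Hey2), all with a lower effect in XY, against 5.71% of all genes. Dll4, Hey1 and Hes1 were below wild type in XY and above it in XX without overlap, 3 of the 10 genes against 2.6% of all genes, while 2.59% of all genes had the mirror image. Averaged over the sexes the effects were between -0.07 and 0.21 with 0 of the 10 called, while limma called 6 of 16943 genes (0.0354%). Kdm6b was among those 6 (-1.30, limma adjusted p = 0.011), but not with no filter (adjusted p = 0.056), with no variance trend (0.087) or without any 1 of 6 libraries, all but the XX wild type ones (0.062 to 0.27).

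The rest of the pathway was covered by 8 lists of 50 genes, of which 45 were tested in each sex. In XY 29 of the 45 had positive and 16 negative log2 fold changes (median 0.05), and in XX 32 had positive and 13 negative ones (median 0.19). No gene of these lists passed by limma in either sex with all libraries. Of those named below, Notch3, Dtx2 and Dlk1 were called in XX without XX wild type replicate 1, and Notch3, Notch4, Neurl1a, Mib1, Furin, Ncstn, Spen and Dtx2 without replicate 2, in the fits that called 3.69% and 20.9% of all genes. An unadjusted p under 0.05 was reached in XX by 12 higher genes and 1 lower gene of the 45 and in XY by 1 higher gene, where all genes gave 9.34% and 4.65% in XX and 2.11% higher in XY.

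The remaining receptors differed from each other. Notch4, a receptor largely confined to endothelium, had 700.4 and 483 normalized counts in XY null gonads, against 731 and 884 in wild type, and 852 and 744 in XX null gonads, against 469 and 602 in wild type. Its groups did not overlap in either sex, with log2 fold changes of -0.47 (SE 0.20) in XY and 0.58 (SE 0.16) in XX, in the manner of Dll4. Notch3, the receptor of vascular smooth muscle and pericytes and also of interstitial cells, had 5685 and 4531 in XY null gonads, against 4320.1 and 4650 in wild type, and 5907 and 5629 in XX null gonads, against 2689 and 4158 in wild type. Its log2 fold change was 0.18 (SE 0.12) in XY gonads and 0.79 (SE 0.21, limma adjusted p = 0.29) in XX. Without XX wild type replicate 1 the XX value of Notch3 was 0.47 (limma adjusted p = 0.027) and without replicate 2 it was 1.10 (limma adjusted p = 0.0012), while the XY value ran from 0.02 to 0.34 as each library was left out.

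Of the other ligands, Dlk1, a non-canonical ligand expressed at high levels in embryonic mesenchyme, had log2 fold changes of 0.24 in XY and 0.24 in XX, and Dll3, which acts inside the cell as an antagonist, had 0.12 and 0.37. The 11 genes of the nuclear complex had a median of 0.02 in XY and 0.43 in XX. In XX 6 of the 11 had an unadjusted limma p under 0.05, all higher, against 9.34% of all genes. Among them the corepressor gene Spen had a log2 fold change of 0.48 (SE 0.11, limma adjusted p = 0.26) in XX. Rbpj itself had 2525 and 2323 normalized counts in XY null gonads, against 914 and 2192 in wild type, so its log2 fold change of 0.77 (SE 0.39) was below the difference between the wild type libraries. In XX Rbpj had 2412 and 2394 in null gonads, against 1261 and 2044 in wild type (0.58, SE 0.23), and in both sexes the groups did not overlap, with the null the higher. Maml2, a coactivator of the Mastermind family, had 0.28 (SE 0.13) in XY.

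Of the genes that cleave the receptors, the γ-secretase subunit Ncstn had log2 fold changes of 0.18 (SE 0.07) in XY and 0.42 (SE 0.10) in XX, the protease Furin had 0.39 (SE 0.09) in XX, and the sheddase Adam10 had -0.14 (SE 0.10) in XY. The list as a whole had medians of 0.06 in XY and 0.11 in XX. Receptor glycosylation genes, which tune the response to each ligand, had medians of -0.01 and 0.03, with Mfng at -0.16 and Rfng at 0.08 in XY and Pofut1 at 0.19 and Poglut1 at -0.19 in XX. Among the ubiquitin ligases that activate ligands, Neurl1a had 0.41 (SE 0.15) and Mib1 0.24 (SE 0.12) in XX, and Mib2 had 0.18 (SE 0.09) and Neurl1b 0.23 (SE 0.16) in XY. Negative regulators had medians of 0.07 in XY and 0.24 in XX. Their lowest p values were those of Itch (-0.17) and Dtx4 (0.44) in XY and of Dtx2 (0.47, SE 0.10) and Numb (0.24, SE 0.10) in XX. Of the 5 other HES genes only Hes6, which counteracts Hes1, had enough counts, with 340 and 305 normalized counts in XY null gonads, against 389 and 319 in wild type. In XX Hes6 had 331 and 306 in null gonads, against 424.9 and 423.8 in wild type (log2 fold change -0.41, SE 0.12), the opposite direction to the 4 target genes above.

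**Figure D4:**
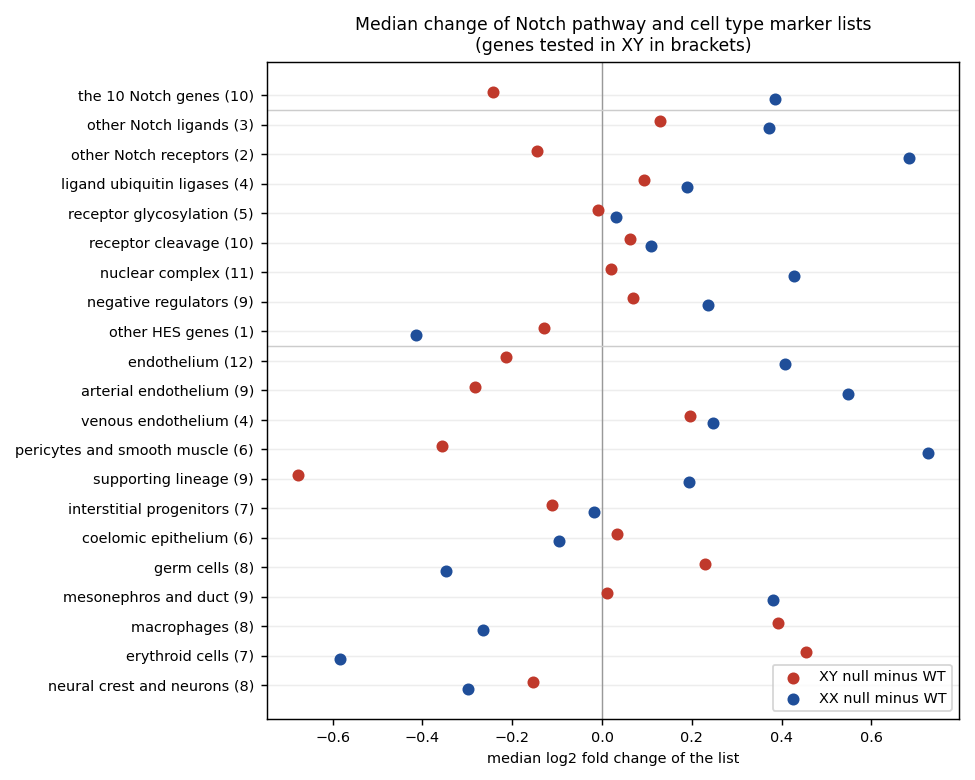
Median log2 fold change (x axis) of the 10 Notch genes, of the 8 lists of other pathway genes and of 12 lists of cell type markers in XY (red) and XX (blue), with the number of genes tested in XY in brackets. The 10 Notch genes (-0.24 and 0.39) lie close to endothelium (-0.21 and 0.41) and arterial endothelium (-0.28 and 0.55). In XX mesonephros and duct (0.38) also lies close, while in XY it is at 0.01.

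Endothelial, arterial and pericyte markers had medians of the same sign as the Notch genes in each sex, and their part in those results was not tested. Of 12 endothelial markers, which hold none of the 10 Notch genes, 11 had negative log2 fold changes in XY, with a median of -0.21, and all 12 had positive ones in XX, with a median of 0.41. Their summed level was 17786 to 19289 normalized counts in XY null gonads, against 18334 to 24373 in XY wild type, and 21014 to 21411 in XX null gonads, against 14366 to 15734 in XX wild type. None of the 12 was at 0 in any group. XY wild type replicate 2, the library in which 9 of the 10 Notch genes were higher, also had the highest endothelial sum of the XY libraries. Plvap, which marks the fenestrated endothelium of small vessels, had the smallest p of the list in XX (log2 fold change 0.93, SE 0.14), and the angiopoietin receptor gene Tek had it in XY (-0.48, SE 0.20). Of 9 arterial markers 8 were lower in XY (median -0.28) and 8 higher in XX (median 0.55). Their sum was 10945 to 13513 normalized counts in XY null gonads, against 11932 to 15198 in wild type, and 14276 to 14971 in XX null gonads, against 9846 to 11407 in wild type. Among them the gap junction gene Gja5 had 1683 and 1916 normalized counts in XX null gonads, against 798 and 983 in wild type (1.02, SE 0.14), and the kinase gene Bmx had 69.3 and 39.1 in XY null gonads, against 88.0 and 136 in wild type (-1.06, SE 0.37). Of 4 venous markers, all 4 were higher in XY and 3 in XX, with medians of 0.20 and 0.25, led by the vein-fate regulator Nr2f2 in XY (0.42, SE 0.09) and the ephrin receptor gene Ephb4 in XX (0.52, SE 0.13). Of 6 pericyte and smooth muscle markers 5 were lower in XY (median -0.36) and all 6 higher in XX (median 0.73). Their sum was 11504 to 14923 normalized counts in XY null gonads, against 12862 to 21066 in wild type, and 16226 to 20367 in XX null gonads, against 10576 to 10963 in wild type, with log2 fold changes for Pdgfrb at -0.31 (SE 0.09) in XY and Rgs5 at 0.63 (SE 0.09) in XX. No gene of these 4 lists passed by limma in either sex with all libraries. Without XX wild type replicate 1 limma called Plvap (0.76, adjusted p = 0.0096), Gja5 (0.87, adjusted p = 0.011) and Rgs5 (0.67, adjusted p = 0.01) in XX, and without replicate 2 it called Plvap (1.11, adjusted p = 0.0016), Gja5 (1.17, adjusted p = 0.0025) and Rgs5 (0.58, adjusted p = 0.0047).

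Set against the endothelial sum of the same library, the median difference of the Notch genes lay closer to 0 in both sexes. The common divisor moves the log2 difference of every gene in a sex by nearly the same amount. This shift therefore comes from the endothelial sum, whose markers had medians of the same sign as the Notch genes in each sex. A move of the Notch median against its own direction was thus set by the choice of divisor. The part of endothelial cells in the values was not tested by it. Per 1000 summed endothelial counts Notch1 stood at 65.0 and 61.7 in XY null gonads, against 63.0 and 66.3 in wild type, and at 60.3 and 60.2 in XX null gonads, against 60.0 and 62.4 in wild type. Its log2 difference on that scale was -0.03 in XY and -0.02 in XX. Hey1 had -0.26 in XY and 0.08 in XX, and Heyl -0.36 and 0.03. For Dll4 the values were 13.1 and 10.2 per 1000 in XY null gonads, against 16.1 and 14.5 in wild type, a log2 difference of -0.40 without overlap, while in XX the difference was -0.04 with overlap. Hey2 was higher in XX null gonads on this scale too, at 18.3 and 20.2 per 1000, against 17.2 and 16.3 in wild type (0.20). In XX Jag1 (-0.38), Jag2 (-0.35), Notch2 (-0.32) and Hes1 (-0.18) were lower in null gonads without overlap on this scale. Dll1 was at -0.27 with overlap. In XY Notch2 was higher without overlap (0.29). Over the 10 genes the median on this scale was -0.05 in XY and -0.11 in XX, with 7 of the 10 lower in each. The shares of all genes that were lower, or did not overlap, on this scale were not computed, so these orders are descriptions only. This ratio was chosen after the values were seen, and its denominator is itself a sum of genes that differed between the groups.

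**Figure D5:**
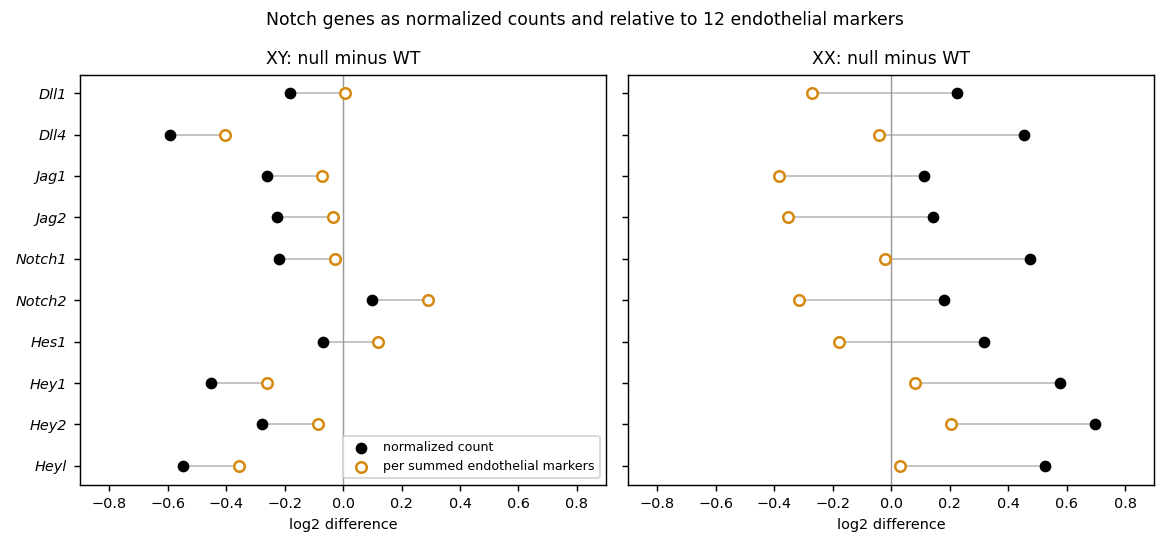
Log2 difference between null and wild type (x axis) of each Notch gene as normalized count (filled) and relative to the summed counts of 12 endothelial markers in the same library (open), in XY (left) and XX (right). In XX the open points lie between -0.38 and 0.20. Division by a common sum moves every gene of a sex by nearly the same amount, in XX to the left.

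Supporting lineage markers also had a negative median in XY (-0.68, with 9 of 9 lower) and a positive one in XX (0.19, with 5 of 8 higher). Their summed level was 7595 to 10075 normalized counts in XY null gonads, against 11040 to 11853 in wild type, and 7913 to 8092 in XX null gonads, against 6435 to 7138 in wild type. Wnt6 had the smallest p of the list in both sexes, with log2 fold changes of -1.07 (SE 0.14) in XY and -0.77 (SE 0.32) in XX, and 1 of the 9 markers, Sry, was at 0 in XX. Median log2 fold changes in XY and XX were -0.11 and -0.02 for interstitial progenitors. Macrophage markers had 0.39 and -0.27, erythroid markers 0.45 and -0.58, germ cell markers 0.23 and -0.35, mesonephros and duct markers 0.01 and 0.38, coelomic epithelium 0.03 and -0.10, and neural crest and neurons -0.15 and -0.30. The part of any of these cell types in the values of the 10 genes was not tested.

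Genes with the most similar pattern were found by the root mean square difference between log2 values over the 8 libraries, after centring each sex table. For Dll4 the nearest of 16943 genes was Notch4, at 0.07 log2 units, against 0.31 for the size of the Dll4 pattern itself, and the next were the low-count predicted genes Gm22596 and Gm43570. For Notch1, whose own pattern had a size of 0.23, the nearest were Itga5, the α subunit of a fibronectin receptor, at 0.06, Fgd5, an exchange factor gene of endothelial cells, at 0.06, and Nos3, the endothelial nitric oxide synthase gene, at 0.07. Fgd5 had log2 fold changes of -0.37 in XY and 0.53 in XX, and Nos3 -0.32 and 0.53. For Hes1, with a size of 0.16, the nearest were Nkrf, E2f4 and Ccni, at 0.03 each, which had log2 fold changes of -0.04 to -0.00 in XY and 0.31 to 0.33 in XX. Among the 10 genes themselves the closest pair was Notch1 and Hey1, at 0.13, followed by Notch1 and Hey2, at 0.15. These distances describe the same 8 libraries as the results above.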

How the data were processed

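Tools named in the submitters' processing notes were cutadapt 4.9, STAR 2.7.11 and featureCounts 2.0.8, with build GRCm38 (mm10). No source used here states the strand setting, annotation release or filters. The authors' deposited signal values are normalized counts, scaled within each sex. The authors' deposited comparisons of null over wild type (the notes also name DESeq2 2.11.40.8) hold a log2 fold change with a standard error, a Wald score, and a p-value before and after adjustment. The XX comparison lacks a header and was read with the XY table's columns. All 8 value columns were matched to samples by title, and 0 were left over.

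In every library 100% of nonzero values were whole multiples of a step within 1e-06 of a step, which was read as 1 count for depths only; a count model was planned for recovered reads and was not run, because a separate screen did not accept them as such. Intervals and limits cover counting or between-library error only.

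limma 3.58.1 in R 4.3.3 was run on log2(normalized count + 1), with a variance trend, genes with a mean of at least 10, Benjamini-Hochberg adjustment over all genes, and residual degrees of freedom of 2 within a sex and 4 for the 8 libraries. On this scale changes of low genes are understated. The fits were also run on simulated data, drawn with the same spread setting for every gene. How they behave at the spread of the present libraries was not tested. Exon lengths came from GENCODE M21 (GRCm38), promoters from RefSeq. Replicate numbers are shared across groups in the titles but nothing says what they share; same-numbered libraries had deviations correlated at 0.25 in XY and -0.07 in XX.

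The 10 genes and all lists were chosen with earlier results of these data known. The genes named were all 10, Kdm6b, the 2 genes of each pathway list with the smallest p in each sex, the leading marker in each sex of the cell type lists described at length, and the 3 genes with the most similar pattern to Notch1, Dll4 and Hes1. Members of the nuclear complex, receptor and ligand lists named in the sex where their p was not among the smallest were added for comparison. A gene that this rule names is not reported here.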

Additional observations from a re-analysis of the deposited data

Results flagged for a closer look

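These results, for the genes named in the text, had every null library below every wild type library in XY and above it in XX. The limma difference between the XY and the XX effect was -1.05 for Dll4, -1.03 for Hey1, -0.39 for Hes1, -1.05 for Notch4, -0.98 for Tek and -0.52 for Pdgfrb. The negative regulators Itch (-0.30) and Numb (-0.38) showed the same order of libraries. Of the other listed genes Nrarp (-0.96), Cldn5 (-0.64), Sox18 (-0.82), Gata4 (-1.01) and Lhx1 (-1.04) had it too. For none of these genes did the limma test of the difference pass, with adjusted p = 0.57 to 0.62, and with 2 libraries a group this order was seen in 2.6% of all genes.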

How the results depend on the processing

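The log2 fold changes of the 10 Notch genes in XY and XX and their differences kept their sign in all 230 results under another pseudocount (0.5 or 5), another filter (none, or a mean of at least 50), the same total per library, no variance trend, a replicate block, or a fit of all 8 libraries, and none became a call. The same total per library moved the median of all genes in XX by less than 0.1. Leaving out each library in turn gave 160 results, of which 9 changed sign and 5 became calls: Notch1 ran from -0.46 to 0.023, Notch2 from -0.048 to 0.25, Jag2 from -0.57 to 0.12, Dll1 from -0.54 to 0.17 and Hey2 from -0.70 to 0.15 in XY, Jag1 from -0.024 to 0.25 and Dll1 from -0.078 to 0.53 in XX, and the Notch2 difference from -0.23 to 0.068. The median of the 10 genes ran from -0.45 to -0.07 in XY and from 0.29 to 0.51 in XX, with 7 to 9 genes lower in XY, 8 to 10 higher in XX and 9 to 10 lower in the difference, a count added after seeing the data.

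Over all genes limma called 1 in XY with no variance trend, and 23 in XY and 2 in XX with a replicate block. The replicate block called 0 of the 10 genes in either sex, while Kdm6b was among its 23 calls in XY (limma adjusted p = 0.0031). A fit of all 8 libraries called 10 in XX. On average over the sexes it called 1 with no filter, 1 with a mean of at least 50 and 2 with no variance trend, against 6. Leaving out a library gave 0 to 2 calls in XY, 0 to 3550 in XX, 0 to 43 for the difference and 0 to 1306 on average, the highest values in XX, the difference and the average being those without XX wild type replicate 2. Among Kdm6b and the other genes named by the rule, leaving out a library turned 21 of 160 results into calls, all in XX without a wild type library, and ended 6, all of them the Kdm6b average. Of the same results 4 changed sign: Dll3 and Mfng in XY, Hes6 in XY and Dlk1 in XX, at -0.013 to 0.26, -0.44 to 0.12, -0.27 to 0.014 and -0.044 to 0.52 in that order. Depth limits only values near 3 counts, far below those of the 10 genes, and 2 libraries a group limit every comparison. The ratio to endothelial markers was also chosen after seeing the data.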
